A study of Mus musculus with 8 samples.

Results

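Translation factors are the proteins that bring a ribosome to the start of a messenger RNA and then move it along the coding sequence. In initiation, eIF2 carries the initiator tRNA, eIF3 and eIF1A help the small ribosomal subunit to scan for a start codon, and the eIF4 proteins bind the cap of the messenger and unwind it. Elongation rests on eEF1A, which delivers aminoacyl-tRNA, and on eEF2, which moves the ribosome forward by a codon. Neurons control both steps through kinases and binding proteins of the same gene family, among them the eIF2alpha kinases, the eIF4E-binding proteins and the eEF2 kinase.

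The members are the mouse array probe sets whose only annotated gene symbol begins with Eif and a digit from 1 to 6, or with Eef and 1 or 2. They number 155 of 45101 probe sets and stand for 58 of 18193 named genes. Another 8 probe sets carry such a symbol joined to a further one and are left out, and genes of the family that the annotation does not list are not analysed here. A probe set was tested where at least 4 of 8 arrays reached a linear value of 50, a log2 value of 5.64. That held for 103 of the 155 probe sets and for 54 of the 58 genes, each gene standing for its tested probe set of highest mean. The 4 genes without a tested probe set were Eif2ak2, Eif4a3, Eif4ebp1 and Eef2kmt. For 53 of the 54 genes the representing probe set reached 50 on all 8 arrays. Eef1aknmt passed through the unbound arrays alone.

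The arrays compare RNA bound to tagged ribosomes of hypocretin neurons, the arousal-promoting cells of the lateral hypothalamus, with RNA left in the same lysates. All mice were adults of both sexes, 6 to 12 weeks old, of a mixed Fvb and c57/bl6j background and of the bacterial artificial chromosome line Hcrt JD218, which every sample of both groups carries. Thalamus and hypothalamus of 5 mice were pooled for each of 4 immunoprecipitates by translating ribosome affinity purification (TRAP), and the 4 unbound fractions of those preparations stand for total tissue RNA. Values are log2 intensities made by the authors within each group, aligned here on spiked hybridisation controls. A fold between the fractions cannot tell cell type from ribosome binding, nor fewer cells of a type from less RNA per cell.

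Hcrt, the gene of the hypocretin peptides, stood at 15.36 ± 0.17 in the 4 immunoprecipitates and at 10.33 ± 0.55 in the unbound arrays (log2, SD, n = 4 each), a rise of 32.5-fold with a limma adjusted p of 6.5e-07. Other cells left RNA in the immunoprecipitates. The mean log2 value of 6 astrocyte markers lay between 5.58 and 7.07 there and between 9.11 and 9.38 in the unbound arrays, and 5 oligodendrocyte markers lay between 9.48 and 10.97 against 12.52 to 12.82. Of 6 astrocyte, 5 oligodendrocyte, 4 microglial, 1 endothelial and 7 other-neuron markers tested, every one was called lower. Among these, Sox9, Cx3cr1, C1qa and Cldn5 reached 50 on 0 immunoprecipitate arrays and entered the fit through the unbound arrays, where they are higher. They were at least 5.51-, 3.78-, 5.25- and 1.68-fold lower, so 2-fold is not shown for Cldn5, the only endothelial marker. Gfap reached 50 on 1 immunoprecipitate array and was at least 13.06-fold lower. The other-neuron markers lay between 7.97 and 9.19 against 11.06 to 11.36. Of 6 hypocretin neuron markers 5 rose, and Slc17a6, the vesicular glutamate transporter, gave -0.69 (limma adjusted p = 0.025). The difference between the 3' and 5' probe sets of Actb, a sign of RNA length, ran from 3.14 to 4.11 on the immunoprecipitate and from 3.01 to 3.80 on the unbound arrays. For Gapdh it ran from 2.12 to 4.50 and from 1.94 to 3.36. The part of these in the results below was not tested.

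Of the 54 translation factor genes, 7 were called lower in the immunoprecipitate and 0 higher, at a limma adjusted p under 0.05 and a fitted difference of at least 2-fold. Of the 7, 6 were measured above 50 on all 8 arrays: Eif3a, Eif4e3, Eif4g3, Eif5b, Eif2a and Eif5a2. The other is Eef1aknmt, which entered the fit through the unbound arrays, where it is higher, and for which 2-fold is not shown. Each gene is described by its representing probe set, and in 5 further genes (Eif1ax, Eif2s2, Eif4ebp2, Eif4h and Eif5) another probe set was called lower. Among all 10398 tested genes 44.2% were called lower and 4.74% higher. The median change of the 54 genes was -0.14 on the log2 scale, against -0.85 for all tested genes, and 44 of the 54 lay above that overall median. By adjusted p alone, with no fold required, 17 were lower and 5 higher, where the shares over all genes were 54.7% and 8.17%. The immunoprecipitate arrays lay wholly below the unbound arrays for 14 of the 54 genes, and wholly above for 4. Over all genes these shares were 50.6% and 6.53%. By probe set, 14 of 103 were lower and 0 higher, against 45.1% and 4.88% of all tested probe sets. Of these 14, that of Eef1aknmt and that of Eif5 lay under 50 on all 4 immunoprecipitate arrays. Both entered the fit through the unbound arrays alone.

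The count of 7 depends on single arrays and on the scale. It was 3 without unbound replicate 1, 11 without unbound replicate 3, and 4 without both arrays of replicate 4. The shares over all genes with arrays left out are not given here, so these counts are not read as particular to the members. After centring every array on its median, which moves the median of all genes from -0.85 to 0.08, 0 of the 54 were lower and 18 higher, with 19.6% and 20.4% of all genes called. All 5 eEF1 genes and 6 of 11 eIF3 genes were among those 18. On the spiked poly-A controls all 54 were lower and 0 higher, with 94.5% and 0.673% of all genes called. With the replicate number as a block the same 7 were lower and 0 higher, against 44.8% and 4.98%. Changes below are on the hybridisation-control scale, and differences between members do not move when whole arrays are shifted.

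**Figure D1:**
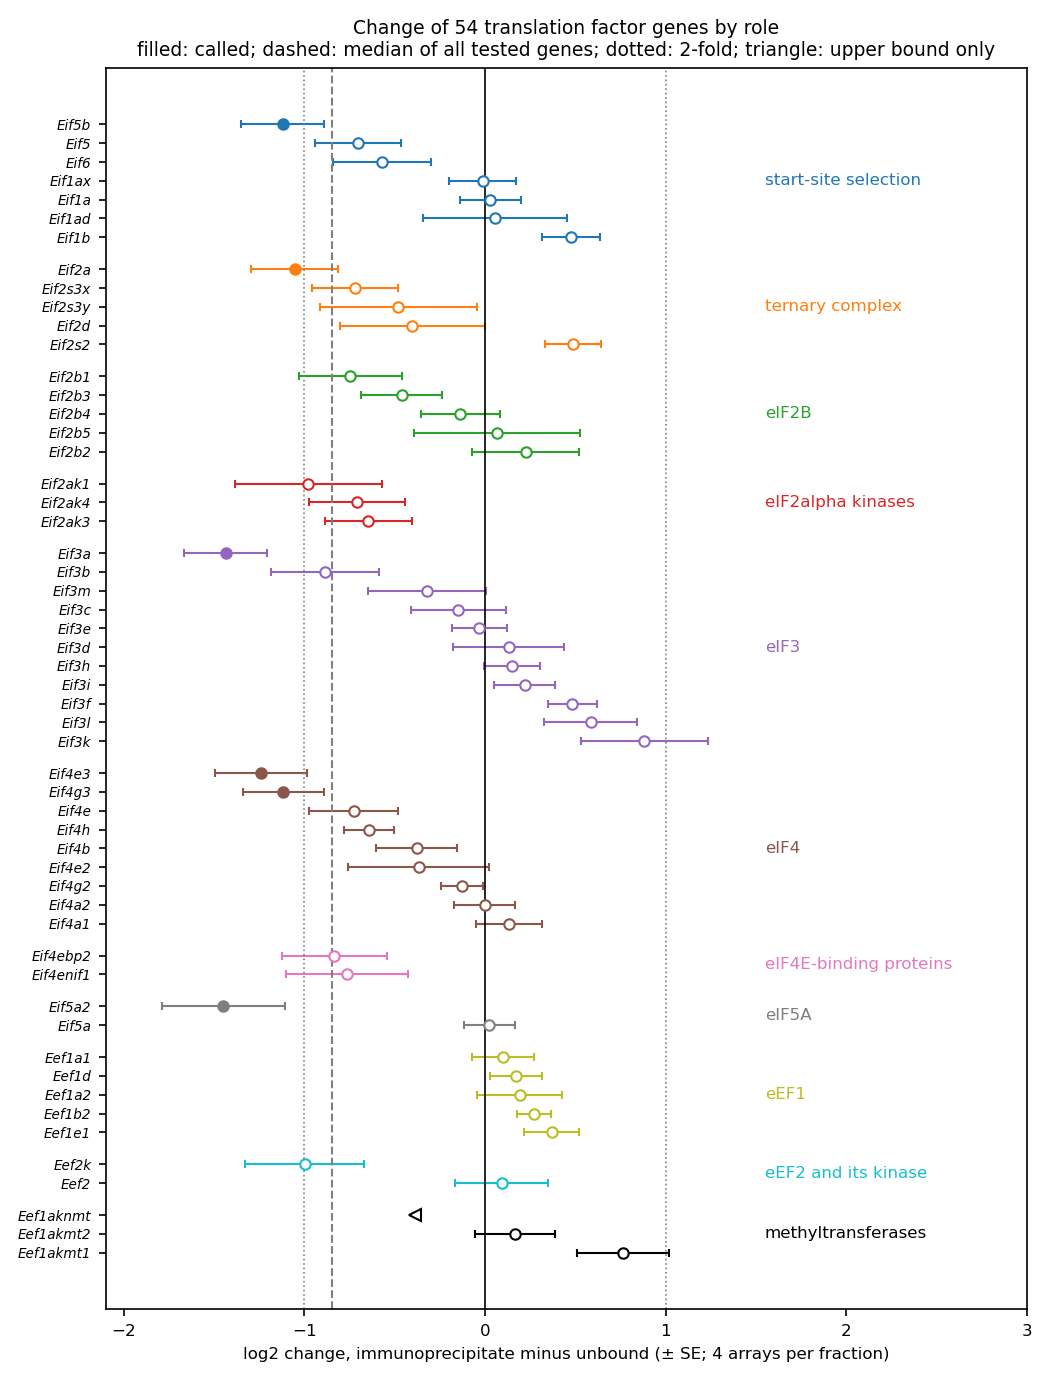
Log2 change (immunoprecipitate minus unbound, ± SE, 4 arrays per fraction) of the 54 tested genes, in role groups; filled points passed the adjusted p and the 2-fold threshold, the dashed line is the median of all tested genes at -0.85, and the triangle (Eef1aknmt) is an upper bound. The 5 eEF1 genes all lie between 0.10 and 0.37, and the 6 filled points lie between -1.45 and -1.05.

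Among the elongation factors, all 5 tested eEF1 genes had small positive differences, between 0.10 and 0.37 on the log2 scale, and 0 were called. Of all tested genes 44.2% were called lower and 4.74% higher. On the poly-A scale the eEF1 differences were negative. Eef1a1 encodes the eEF1A form of most tissues, and Eef1a2 the form of adult neurons and muscle. Eef1a1 stood at 15.03, 15.10, 15.16 and 15.50 in the immunoprecipitates and at 15.16, 15.04, 14.71 and 15.49 in the unbound fractions (log2, replicates 1 to 4). Its groups overlap, and the log2 change was 0.10 ± 0.17 (SE, limma adjusted p = 0.64). Eef1a2 stood at 13.57, 14.12, 14.11 and 14.40 against 13.91, 14.19, 13.23 and 14.08, again with overlap and a change of 0.19 ± 0.24 (limma adjusted p = 0.49). On this scale neither form of eEF1A differed between the fractions beyond the spread of the arrays, while median centring gave 1.02 and 1.12 for Eef1a1 and Eef1a2, and the poly-A scale -1.87 and -1.77.

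Eef1b2 encodes an exchange subunit that reloads eEF1A with GTP. It ran from 14.96 to 15.07 over the 4 immunoprecipitates and gave 14.68, 14.84, 14.80 and 14.65 in the unbound fractions, with no overlap. The change of 0.27 ± 0.10 had a limma adjusted p of 0.030 and was far from 2-fold. Without immunoprecipitate replicate 1 it was 0.12 (limma adjusted p = 0.32), and without unbound replicate 3 it was 0.14 (limma adjusted p = 0.26). Eef1d, a further exchange subunit, had a difference of 0.17, and Eef1e1, which sits in the complex of tRNA synthetases, of 0.37. Eef2, the translocation factor, stood at 12.94, 13.68, 13.49 and 13.73 against 12.85, 13.24, 13.38 and 14.01. The fractions of Eef2 overlap throughout (0.09 ± 0.26, limma adjusted p = 0.77).

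Eef2k, whose product phosphorylates and slows eEF2, gave 8.02, 8.21, 7.13 and 7.46 in the immunoprecipitates and 8.83, 9.11, 8.03 and 8.86 in the unbound fractions. It was lower in each of the 4 preparations, although the groups overlap. Its difference of -0.9995 ± 0.33 (limma adjusted p = 0.022) was just short of the 2-fold threshold. Without immunoprecipitate replicate 1 or 2, or without unbound replicate 3, it passed, at -1.24, -1.10 and -1.37. Over all 8 leave-outs it ran from -1.37 to -0.78, with limma adjusted p up to 0.107, the weakest without unbound replicate 1.

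eIF5A, which carries the modified residue hypusine and helps ribosomes through difficult peptide bonds, has a widespread form, Eif5a, and a second form, Eif5a2. Eif5a gave 14.74, 15.09, 15.07 and 15.10 in the immunoprecipitates and 15.20, 14.76, 14.79 and 15.15 in the unbound fractions. These values overlap, with a change of 0.02 ± 0.14 (limma adjusted p = 0.90). Eif5a2 gave 10.46, 9.51, 9.42 and 9.52 against 11.73, 11.37, 10.31 and 11.30. It fell 2.73-fold (log2 change -1.45 ± 0.34 SE, limma adjusted p = 0.0039) and was lower in 4 of 4 preparations, while the first immunoprecipitate and the third unbound array cross. A second Eif5a2 probe set gave -0.27 (limma adjusted p = 0.52), so the fall rests on 1 probe set, and the mean of both gave -0.86 and lost the call.

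**Figure D2:**
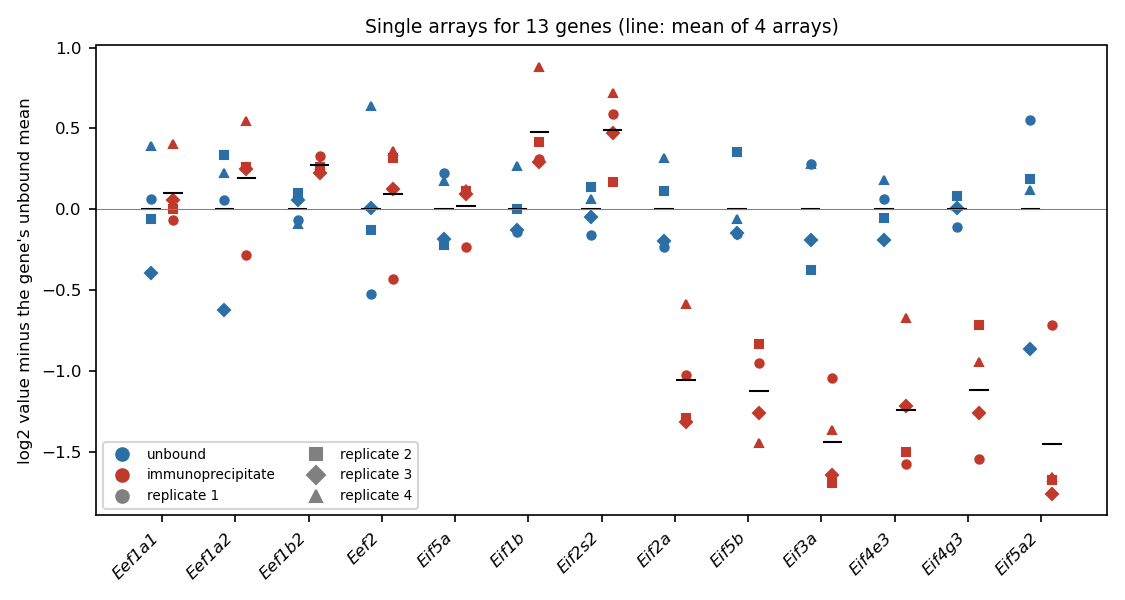
Log2 value on each array minus the gene's mean over the 4 unbound arrays, for 13 genes; blue points are unbound, red points immunoprecipitate, symbols mark the replicate number and lines the mean of 4 arrays. Eef1a1, Eef1a2, Eef2 and Eif5a at the left scatter around 0, and the Eef1b2 immunoprecipitate points lie above all its unbound points. The 6 genes at the right have immunoprecipitate means between -1.45 and -1.05.

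Within eIF3, the multi-subunit factor that binds the small ribosomal subunit, the subunits spread widely. Of 11 tested subunit genes 1 fell and 0 rose, against 44.2% and 4.74% of all tested genes, with a median change of 0.13. Eif3a, the largest subunit and a scaffold of the complex, gave 10.53, 9.88, 9.93 and 10.21 in the immunoprecipitates against 11.86, 11.20, 11.39 and 11.85. The groups are far apart, and the fall was 2.71-fold (log2 change -1.44 ± 0.23 SE, limma adjusted p = 0.00039). A second Eif3a probe set fell 3.41-fold (limma adjusted p = 0.0002). The scaffold subunit Eif3b gave -0.89 (limma adjusted p = 0.024) and did not reach 2-fold.

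Some eIF3 subunits had positive differences. Eif3k gave 11.75, 12.99, 12.89 and 12.53 against 10.95, 12.11, 12.28 and 11.30, higher in 4 of 4 preparations with overlapping groups (0.88 ± 0.35, limma adjusted p = 0.050). Eif3l, like Eif3k a subunit at the edge of the complex, had a difference of 0.58 (limma adjusted p = 0.070). Eif3f gave 14.20, 14.24, 14.29 and 14.49 against 13.53, 13.98, 13.88 and 13.90. The Eif3f groups do not overlap, and its change of 0.48 ± 0.13 (limma adjusted p = 0.0097) did not reach 2-fold. The representing probe sets of the remaining subunits Eif3c, Eif3d, Eif3e, Eif3h, Eif3i and Eif3m lay between -0.32 and 0.22, all with overlapping groups. Another Eif3c probe set gave 0.60 with no overlap (limma adjusted p = 0.043).

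Many messengers of the translation apparatus begin with a run of pyrimidines, the terminal oligopyrimidine tract, through which the mTOR pathway controls their translation. Among the members it is known for Eef1a1, Eef1a2, Eef1b2, Eef1d, Eef2, Eif3e, Eif3f, Eif3h and Eif4b. These 9 had a median change of 0.15 with 0 called, between -0.38 and 0.48, while the other 45 tested members had a median of -0.40 with 7 lower. Over all tested genes 44.2% were called lower and 4.74% higher. All of the 9 but Eif4b lay in quintile 5 of mean value, the brightest genes, where 0 of 26 members were called lower. The part of the level in this contrast was not tested. RefSeq sequences around annotated transcript starts (GRCm38.p6) were available for 47 of the 58 genes, 6 of them from the known list. They were searched, on the gene's strand, for an unbroken run of at least 8 C or T letters that begins with C, in the window from 20 bases before to 50 after the start. The run was present for 16 of 47 members, 34.0%, for 3 of the 6 on the known list, and for 76.3% of 38 cytosolic ribosomal protein genes, against 22.7% of 27025 genes. Annotated starts can lie away from the base where transcription begins, so an absent run says only that these letters are not in this window.

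The next stretches are shown because eIF3 subunits at both ends of the range of changes hold the run, and they add an elongation factor and an eIF2 subunit. Capitals mark the longest run in each window, and shorter runs are left unmarked.
Eif3f (0.48, chr7:108934403-108934432, plus strand): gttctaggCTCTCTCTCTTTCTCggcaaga
Eif3k (0.88, chr7:28981856-28981885, minus strand): gctgaaagcgCCTTTCCCTTTgccttcctt
Eif3l (0.58, chr15:79075216-79075245, plus strand): ttcttcttccgCTCTCTCCCacgggcttct
Eif3a (-1.44, chr19:60790644-60790673, minus strand): atcacgtggttCCTTCCTTTCCgtctctgg
Eef1a2 (0.19, chr2:181156980-181157009, minus strand): gctcactggttCTCTCCCTCgctccggtgc
Eif2s3x (-0.72, chrX:94212632-94212661, minus strand): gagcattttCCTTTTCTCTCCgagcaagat
The value after each name is the log2 change of its representing probe set. Eif3a, the lowest eIF3 subunit, and Eif3k, the highest, both hold a run of 11 letters. The marked runs are not all at the annotated start. Those of Eif3f and Eif2s3x begin 4 bases and 1 base before it. The marked runs of Eif3l, Eif3k, Eef1a2 and Eif3a begin 4, 13, 17 and 31 bases after it, within the annotated transcript. The Eif3l stretch also holds a shorter, unmarked run that spans the annotated start, and the Eif3k stretch ends in another unmarked run.

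In the cap-binding group eIF4, 2 of 9 tested genes were lower, against 44.2% of all tested genes, and the median was -0.38. Eif4e3, a cap-binding protein related to eIF4E, gave 7.52, 7.60, 7.88 and 8.42 against 9.16, 9.04, 8.91 and 9.28. The groups do not overlap, and it fell 2.36-fold (log2 change -1.24 ± 0.26 SE, limma adjusted p = 0.0019). Eif4g3, a form of the scaffold that joins the cap-binding protein to the ribosome, gave 8.56, 9.39, 8.84 and 9.16 against 9.99, 10.18, 10.11 and 10.13. It fell 2.17-fold (limma adjusted p = 0.0016), with every immunoprecipitate array below every unbound one, but gave only -0.97 when unbound replicate 1 was left out, under 2-fold.

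Both tested helicase genes overlapped between the fractions. Eif4a1 gave 11.82, 12.38, 12.25 and 12.14 against 11.72, 12.16, 12.25 and 11.94, a change of 0.13 ± 0.18 (limma adjusted p = 0.55). Eif4a2, the second helicase form, gave 14.35, 14.45, 14.12 and 14.79 against 14.35, 14.22, 14.37 and 14.77, which overlap fully (limma adjusted p = 0.995). Eif4g2, a relative of the scaffold that lacks the cap-binding protein's site, gave -0.13 with overlap. Its other 2 tested probe sets gave -0.55 with no overlap (limma adjusted p = 0.0063) and -0.65 (limma adjusted p = 0.022). Eif4h, a helper of the helicase, gave -0.64 ± 0.14 with no overlap (limma adjusted p = 0.0023), short of 2-fold. A dimmer Eif4h probe set fell 2.21-fold, also with no overlap (limma adjusted p = 0.0024).

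Eif4e, the cap-binding protein itself, gave 11.54, 11.34, 11.44 and 12.05 against 12.45, 12.00, 11.94 and 12.89. It was lower in 4 of 4 preparations, the groups overlap, and the change of -0.73 ± 0.25 (limma adjusted p = 0.026) did not reach 2-fold. Its other probe sets gave 0.24 (limma adjusted p = 0.45) and -0.39 (limma adjusted p = 0.24), and the mean of all 3 was -0.29 (limma adjusted p = 0.29). Eif4e2, a cap-binding relative that represses translation, gave -0.37 ± 0.39 (limma adjusted p = 0.43), and Eif4b, a helicase cofactor, gave -0.38. The other tested Eif4b probe sets went the other way, at 0.19 (limma adjusted p = 0.60) and 0.64 (limma adjusted p = 0.13). Neither of the 2 tested binding proteins was called, where 44.2% of all tested genes were lower and 4.74% higher. Eif4ebp2, the main brain form of the inhibitor that blocks eIF4E, gave -0.84 ± 0.29 (limma adjusted p = 0.028) with no overlap, its arrays reading 7.10, 6.64, 7.28 and 7.21 against 7.40, 7.89, 8.50 and 7.77. Another Eif4ebp2 probe set, which reached 50 on 3 immunoprecipitate arrays, was at least 3.29-fold lower (limma adjusted p = 0.0029). Eif4enif1, which shuttles eIF4E into the nucleus, gave -0.76 (limma adjusted p = 0.072).

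Of the factors that choose the start codon and join the subunits, 1 of 7 tested genes was lower and the median was -0.01. The share lower over all tested genes was 44.2%. Eif5b, the GTPase that joins the large subunit, gave 8.82, 8.93, 8.50 and 8.32 against 9.61, 10.12, 9.62 and 9.70. The groups do not overlap, and it fell 2.17-fold (limma adjusted p = 0.0018), but it was under 2-fold when immunoprecipitate replicate 4 (-0.91) or unbound replicate 1 (-0.99) was left out. Eif1b, a form of the factor that guards start-codon choice, was higher on every immunoprecipitate array, at 14.13, 14.23, 14.11 and 14.70 against 13.68, 13.81, 13.69 and 14.08. Its change was 0.48 ± 0.16 (limma adjusted p = 0.026), short of 2-fold. Eif5, which activates the GTPase of eIF2, gave -0.70 (limma adjusted p = 0.026) and Eif6, which keeps the subunits apart, gave -0.57 (limma adjusted p = 0.091). Eif1a and Eif1ax, which encode the scanning factor eIF1A, gave 0.03 and -0.01, and Eif1ad, which carries an eIF1A-like domain, gave 0.06, all with overlap.

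Among genes of the initiator tRNA step 1 of 5 fell, where 44.2% of all tested genes were called lower. Eif2a, an initiator tRNA carrier apart from eIF2 itself, gave 9.10, 8.84, 8.81 and 9.54 against 9.89, 10.24, 9.93 and 10.45. It fell 2.08-fold (log2 change -1.05 ± 0.24 SE, limma adjusted p = 0.0033) with no overlap, close to the threshold. Leaving out immunoprecipitate replicate 2 took it under 2-fold (-0.91). So did leaving out the first (-0.95) or the fourth (-0.96) unbound array, and a second Eif2a probe set gave -0.61 (limma adjusted p = 0.28). Eif2s2, the beta subunit of eIF2, was higher on every immunoprecipitate array, at 13.23, 12.81, 13.11 and 13.36 against 12.48, 12.78, 12.59 and 12.71 (0.49 ± 0.16, limma adjusted p = 0.019). The gamma subunit Eif2s3x gave -0.72 (limma adjusted p = 0.022) with no overlap. The other tested Eif2s3x probe sets gave -0.56 (limma adjusted p = 0.13) and 0.59 (limma adjusted p = 0.15), both with overlap. The Y-linked counterpart Eif2s3y, in pools of both sexes, gave -0.48 and overlapped. Probe sets of such near-identical copies can share signal, which also holds for Eif1a and Eif1ax. Eif2d, another tRNA carrier, gave -0.40.

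The subunits of eIF2B, which recharges eIF2 with GTP, were 0 of 5 called, where 44.2% of all tested genes were lower and 4.74% higher. Eif2b1 and Eif2b3 lay lower on every array, at -0.75 (limma adjusted p = 0.042) and -0.46 (limma adjusted p = 0.099). Eif2b2 gave 10.58, 11.86, 11.47 and 11.34 against 10.73, 11.39, 11.48 and 10.76, and Eif2b5 8.99, 10.55, 10.12 and 11.38 against 9.70, 10.13, 10.05 and 10.89, both overlapping. Eif2b4 gave -0.14. The representing probe sets of all 3 tested kinases that switch eIF2 off lay lower in 4 of 4 preparations, and 0 were called. Of all 10398 tested genes 8026 had a negative change, with a median of -0.85, and 2 of the 3 kinases lay above that median. Eif2ak3, the sensor of stress in the endoplasmic reticulum, gave 8.66, 8.51, 8.28 and 8.43 against 9.61, 8.87, 8.87 and 9.11 (-0.65 ± 0.24, limma adjusted p = 0.037). Without unbound replicate 1 it was -0.30 (limma adjusted p = 0.31). Eif2ak4, the sensor of uncharged tRNA, gave -0.71 (limma adjusted p = 0.039) and Eif2ak1, the haem-regulated kinase, gave -0.98 (limma adjusted p = 0.057). The other tested Eif2ak1 probe sets gave -0.36 and 0.08, and the mean of its probe sets was -0.42 (limma adjusted p = 0.20).

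Of the 3 tested enzymes that methylate elongation factors 0 rose and 1, Eef1aknmt, has only a bound. Over all tested genes 4.74% were called higher and 44.2% lower. Eef1aknmt, which methylates eEF1A, gave 4.30, 4.33, 4.39 and 5.13 against 6.01, 5.69, 5.83 and 6.54. All 4 immunoprecipitate arrays lay under 50, so it was at least 1.31-fold lower, given as a description, since the filter let it in through the unbound arrays. Without any 1 of these it no longer passed. Eef1akmt1, a lysine methyltransferase of eEF1A, gave 11.78, 12.20, 12.09 and 12.13 against 10.79, 11.82, 11.63 and 10.88. It was higher in 4 of 4 preparations with overlap (0.77 ± 0.25, limma adjusted p = 0.023), short of 2-fold, and a related enzyme, Eef1akmt2, gave 0.17.

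Related genes were compared directly by the difference of their log2 values on each array, in which any shift of a whole array cancels. Of 13 pairs listed 7 could be tested, by a two-sided exact permutation test over the 8 arrays that cannot go below p = 0.029. No pair passed after Benjamini-Hochberg adjustment over the 7. A single pair at that lowest p would not have passed either, so this outcome does not decide whether a pair differed. Eif5a minus Eif5a2 was 4.28, 5.58, 5.65 and 5.58 in the immunoprecipitates and 3.47, 3.39, 4.48 and 3.86 in the unbound fractions. The within-array difference was 1.47 larger in the immunoprecipitates on the log2 scale, and larger in 4 of 4 preparations, with 1 immunoprecipitate array below the highest unbound one (exact permutation p = 0.057, adjusted p = 0.20). Eif4e minus Eif4e3 was 4.02, 3.74, 3.56 and 3.62 against 3.29, 2.96, 3.03 and 3.61. It was 0.51 larger on average, and larger in 4 of 4 preparations (exact permutation p = 0.057, adjusted p = 0.20).

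The other pairs had smaller mean shifts. Eef1a1 minus Eef1a2 shifted by -0.10 and was higher in 2 of 4 preparations (exact permutation p = 0.57, adjusted p = 0.77). Eif4a1 minus Eif4a2 shifted by 0.13, Eif1a minus Eif1ax by 0.04 and Eif2ak3 minus Eif2ak4 by 0.06 (exact permutation p from 0.60 to 0.89). Eif4e minus Eif4e2 shifted by -0.36 and spread widely, from 2.20 to 3.73 in the immunoprecipitates and from 2.13 to 4.60 in the unbound fractions. These values use 1 probe set per gene. With the probe sets of each gene averaged, Eif1a minus Eif1ax was 1.28, Eif5a minus Eif5a2 0.99 and Eif4e minus Eif4e3 0.81, each with an adjusted exact permutation p of 0.067, and 0 pairs passed. The other 2 Eif1ax probe sets, described next, are lower than the representing one. With 4 arrays a group, a p above the threshold does not show that 2 genes changed alike.

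**Figure D3:**
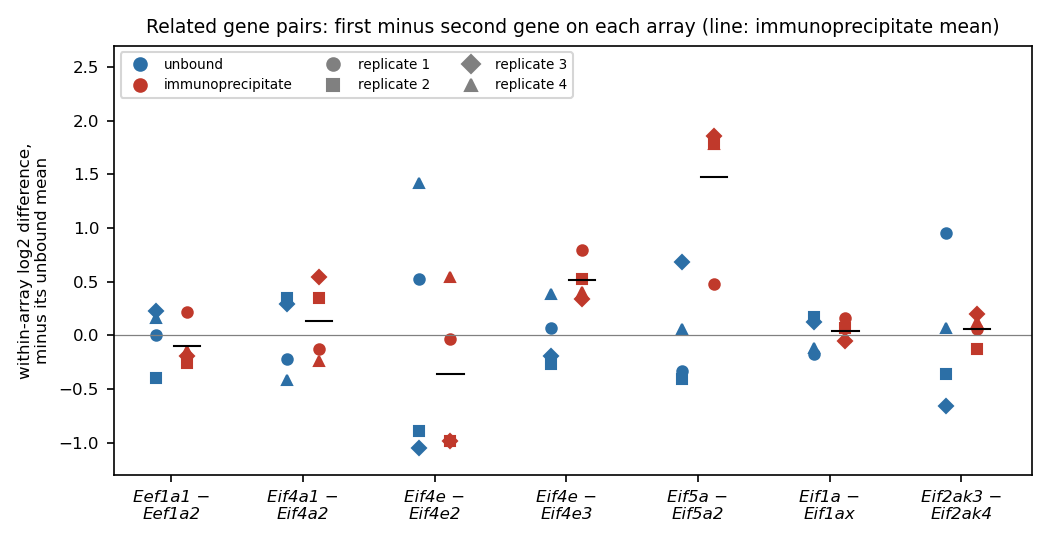
Within-array log2 difference between the genes of each pair, minus its mean over the unbound arrays; blue points are unbound, red points immunoprecipitate, symbols mark the replicate and lines the immunoprecipitate mean. With 1 probe set per gene the Eif5a pair stands highest, with a mean of 1.47, and 3 of its 4 immunoprecipitate points lie above all unbound points.

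Probe sets of the same gene could differ. Of 28 members with several tested probe sets, 9 had changes more than 1 log2 unit apart, a share of 32.1% against 34.9% of 4000 genes. By fitted change the widest was Eif5. Of its 5 tested probe sets, the lowest gave 5.60, 3.52, 3.52 and 3.50 in the immunoprecipitates against 7.75, 6.51, 7.15 and 7.39. All 4 immunoprecipitate arrays lay under 50 there, and the filter let this probe set in through the unbound arrays alone. It was at least 2.96-fold lower, given as a description. The highest probe set had a change of 0.22 (limma adjusted p = 0.45).

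Eif2s2 divided in the same manner. Of 5 tested probe sets, the lowest gave 6.32, 5.62, 6.09 and 5.39 against 9.09, 8.03, 8.17 and 8.43. It was at least 5.70-fold lower (limma adjusted p = 9.1e-05), and 2 immunoprecipitate arrays reached 50. Another pair of Eif2s2 probe sets had differences of 0.69 (limma adjusted p = 0.046) and 0.61 (limma adjusted p = 0.013) on the log2 scale, short of 2-fold. For Eif1ax the representing probe set had a change of -0.01 (limma adjusted p = 0.96). Another gave 10.53, 9.90, 9.79 and 9.48 against 12.35, 12.13, 12.06 and 12.17, a fall of 4.76-fold (limma adjusted p = 3.2e-05), and the remaining one fell 3.19-fold. The part of each transcript that these probe sets match was not analysed here.

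**Figure D4:**
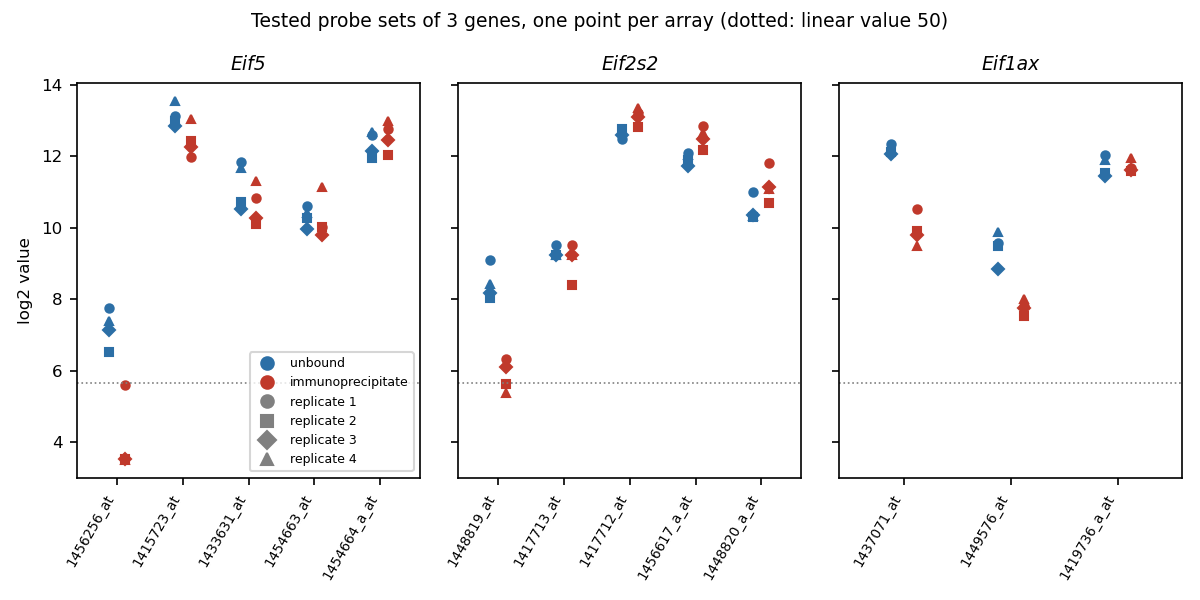
Log2 value on each array for every tested probe set of Eif5, Eif2s2 and Eif1ax, ordered by change; blue points are unbound, red points immunoprecipitate, and the dotted line is the linear value 50. In each gene the probe set at the left is clearly lower in the immunoprecipitate, while the one at the right overlaps or is higher.

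Across all genes, the change went with the level and with the length of the gene. 26 of the 54 members lay in quintile 5, the genes of highest mean value, where all genes had a median change of -0.31 and 23.9% were lower. The 26 members there had a median of 0.14 and 0 were called lower. In quintile 4 the 13 members had a median of -0.32 with 3 lower, against -0.72 and 40.0% for all genes. By genomic length in the RefSeq annotation of GRCm38.p6, the 12 members in quintile 1, the shortest genes, had a median of 0.10 against -0.13 for all genes. The 8 members in quintile 4 of length had a median of -0.70 against -1.15. Across the 54 genes, which share the same 8 arrays, Spearman's rho between length and change was -0.54, and between level and change 0.66. Over all tested genes these were -0.36 and 0.31. The members' median lay above that of all genes in each quintile of level and of length. Quintile 1 of level holds only 1 member, Eef1aknmt, whose immunoprecipitate arrays all lie under 50. Quintile 5 of length holds 3 members.

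**Figure D5:**
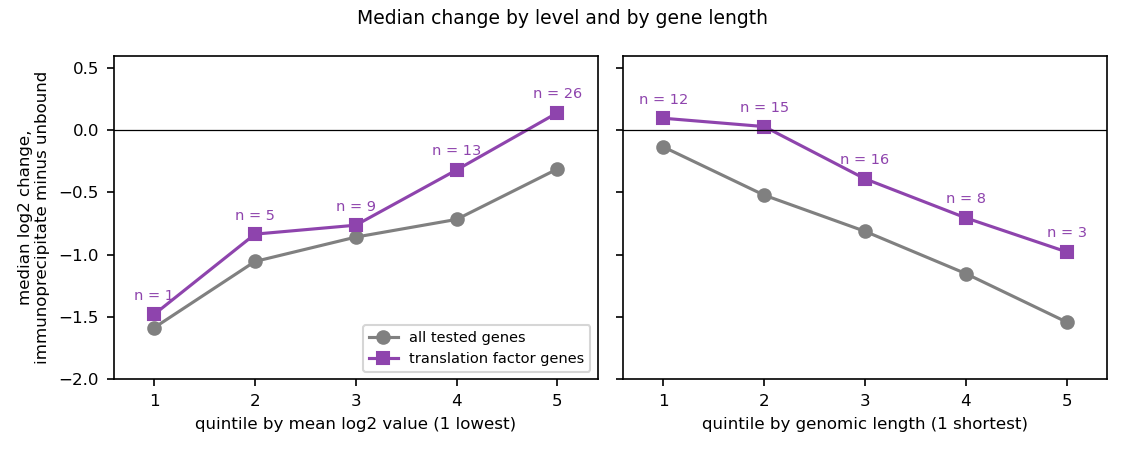
Median log2 change (immunoprecipitate minus unbound) in quintiles of all tested genes by mean log2 value (left) and by genomic length (right), for all genes in grey and for the 54 translation factor genes in purple with their number. In quintile 5 of the values the medians are 0.14 for the members and -0.31 for all genes.

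Cytosolic ribosomal proteins, the nearest relatives in function, lay higher. Of 41 tested genes 6 rose and 0 fell, against 4.74% and 44.2% of all genes. Their median was 0.45, against -0.14 for the translation factors. For 19 of them every immunoprecipitate array lay above every unbound one, where the share over all genes was 6.53%. The difference between the sets was not tested. Of 13 partners of the cap and the poly(A) tail 8 fell and 0 rose (median -1.19), where 44.2% of all genes were lower and 4.74% higher, shares that apply to the lists that follow too. Among them Mknk2, a kinase of eIF4E, fell 4.53-fold (limma adjusted p = 0.00025), Pdcd4, an inhibitor of the eIF4A helicase, by 1.68 on the log2 scale, Ddx3x, a helicase, 3.00-fold, and Pabpc1, the poly(A)-binding protein, 2.29-fold. Of 9 termination and recycling genes 1 fell, the release factor Gspt1 (3.07-fold), and of 21 genes of the cytosolic tRNA synthetases 3 were called lower, Iars, Eprs and Cars. Cars reached 50 on 1 immunoprecipitate array, was at least 1.42-fold lower, and lost its call with the replicate block (limma adjusted p = 0.0505). Of 7 tested mitochondrial translation factors 1 fell, Mtrf1l.

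Genes that act downstream of eIF2 phosphorylation, the integrated stress response, went both ways, with 2 of 9 tested higher and 1 lower. Ppp1r15a, which recruits the phosphatase that switches eIF2 on again, reached 50 on 2 of 4 unbound arrays and was at least 3.46-fold higher (limma adjusted p = 0.0083). The transcription factor Atf5, at 50 on 3 of 4 unbound arrays, was at least 1.94-fold higher (limma adjusted p = 0.021). Nupr1 reached 50 on 0 immunoprecipitate arrays and entered the fit through the unbound arrays alone. It was at least 5.31-fold lower, given as a description. Atf4, the central transcription factor of this response, gave -0.25 (limma adjusted p = 0.32), and Ddit3 gave -0.84 (limma adjusted p = 0.056).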

How the data were processed

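The authors deposited 1 log2 value per probe set and array. They were made with GCRMA, a background correction and normalization for short-oligonucleotide arrays, per the submitters' processing notes (version not given in the sources used here), separately for each group per the series' design text. RNA was amplified over 2 cycles from 20 ng per the labels' protocols. The number of arrays limits the precision. The deposited log2 values of each group were shifted by 1 constant, which gave 18 spiked hybridisation controls the same mean in both groups (difference as deposited 0.02). The 64 control probe sets were left out. The 17865 probe sets reaching 50 (linear) on 4 or more arrays were fitted with limma 3.58.1 in R 4.3.3 (lmFit, eBayes with a mean-variance trend, no block), with Benjamini-Hochberg adjustment over all of them. A call needed an adjusted p under 0.05 and at least 2-fold. Where all 4 arrays of a group lay under 50 the fold is the other group's mean against 50. Where some did, they were raised to 50. A gene is represented by its tested probe set of highest mean. Gene names came from the platform annotation. The fit was tested on simulated data. Plots used matplotlib 3.10.9.

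The members, role groups, gene lists, pairs and the rule for named genes were chosen with earlier results of these data known. Named with full values are up to 4 called genes of each role group with the largest change, the brightest genes, to make up 2, where a group had fewer calls, both genes of tested pairs and Hcrt. Members named beyond these, and genes of the other lists, were chosen after their values were seen.

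Replicate numbers come from the labels' titles, and equal numbers were taken here to be fractions of 1 preparation. Statements on 4 of 4 preparations rest on this reading. Arrays of equal number deviated together from their group means, with correlations over genes of 0.46, 0.32, 0.28 and 0.58 for replicates 1 to 4. The highest correlation with an array of another number was -0.05, 0.26, 0.26 and -0.11, so replicates 2 and 3 are barely set apart by it. Alternatives were 4 other scalings, filters, thresholds, probe set rules, the block, factors alone, and arrays or preparations left out.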

Additional observations from a re-analysis of the deposited data

Results flagged for a closer look

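In each group of 4 arrays the highest or lowest array was compared with the rest, for 31 named genes in both fractions. Of these 62 checks 4 found an array standing apart, where chance gives about 5% of checks. All were in the immunoprecipitates. Eif5a replicate 1 lay at 14.74, under the others at 15.07 to 15.10, a gap of 0.913 of the range. Eif5a2 replicate 1 lay at 10.46, above 9.42 to 9.52 (0.9 of the range). Eif4enif1 replicate 4 lay at 9.04, above 7.71 to 7.90 (0.859), and Eef1aknmt replicate 4 at 5.13, above 4.30 to 4.39 (0.901), where all arrays are under the linear value 50. Without immunoprecipitate replicate 1 the count of members higher was 1, and without replicate 4 of that fraction the count lower was 6.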

How the results depend on the processing

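Scale mattered most. After median centring the median change of the members was 0.78, with 0 lower and 18 higher. Quantile normalization gave a median of 0.26, with 0 lower and 3 higher, where 20.6% and 16.4% of all genes were called. Relative to all genes the members' median was then 0.31, against 0.70 on the scale used. On the poly-A controls the median was -2.11 and 54 were lower, with 94.5% of all genes lower and 0.673% higher. There 13 named genes reversed: Eef1akmt1 -1.20, Eif2s2 -1.48, Eif1b -1.49, Eef1b2 -1.69, Eif2b2 -1.74, Eif3i -1.75, Eef1a2 -1.77, Eif4a1 -1.83, Eef1a1 -1.87, Eef2 -1.87, Eif2b5 -1.898, Eif1a -1.94 and Eif5a -1.94. This follows from the shift itself. With no fold threshold 17 were lower and 5 higher, against 54.7% and 8.17% of all genes. At 4-fold 0 were lower, and the share over all genes at 4-fold is not given here. With no filter on low values the members' median relative to all genes was 0.17. Without probe sets ending _x_at or _s_at the median was -0.37, or 0.48 relative to all genes. Averaging all tested probe sets per gene gave 7 lower, 5 of them the same genes.

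Leaving out each array gave 3 to 11 lower and 0 to 1 higher, without the matching shares over all genes. The median ran from -0.2641 to 0.02174, the latter without unbound replicate 1, and from 0.56 to 0.70 relative to all genes. Without both arrays of replicate 1 the relative median was 0.56. Without those of replicate 4 it was 0.57, with 4 lower. The cause was not tested. With the replicate block the same 7 genes were lower and 0 higher, so it changed no call among the members. For the pairs, the block's exact sign-flip test cannot go below p = 0.13, and 0 pairs passed with any array left out. With an array left out, too, a single pair at the lowest p of the permutation test could not pass after adjustment. The Eif5a pair ran from 1.34 to 1.81 without single arrays, and the Eif4e and Eif4e3 pair from 0.36 to 0.64.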
